A study of Mus musculus with 6 samples.

Results

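The genes described here encode the subunits of neurotransmitter receptors for glutamate, GABA, glycine, acetylcholine, serotonin and dopamine. They were taken by gene symbol from the gene families of these receptors, leaving out Grid2ip and Grina, which encode no receptor subunit, and 1 serotonin receptor gene that is not analysed here. This gave 91 of the 37991 genes in the count files, of which 26 serve glutamate, 21 GABA, 5 glycine, 21 acetylcholine, 13 serotonin and 5 dopamine. By kind, 60 encode subunits of ion channels and 31 encode receptors that act through G proteins. RNA-seq libraries came from the dorsal telencephalon, the embryonic precursor of the neocortex and hippocampus, of 6 mouse embryos of the outbred CD1 strain at E13.5. FGF2, a growth factor for cortical progenitors, had been injected into the ventricles of 3 embryos at 100 ng (numbers 6, 7 and 8), and 3 embryos had received the vehicle, PBS with 0.1% BSA (numbers 7, 8 and 9). No genotype, transgene or further treatment is given for either group, and the labels state neither the time from injection to collection nor the litter of each embryo, so p-values measure the spread between these 6 embryos. RNA came from formalin-fixed coronal cryosections, and each library holds a mixture of cell types.

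Receptors of these families carry signals between neurons, and several are present in the embryonic cortex before most synapses have formed. Ionotropic receptors are channels built from several subunits, so the subunit genes that a cell transcribes set which channels it can assemble. GABA-A and glycine receptors pass chloride, AMPA, kainate and NMDA receptors pass cations in response to glutamate, and nicotinic and 5-HT3 receptors pass cations in response to acetylcholine and serotonin. Metabotropic receptors work as single proteins or pairs that couple to G proteins. In the developing cortex, GABA and glutamate act on dividing progenitors and migrating neurons as well as at synapses.

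The sequences just upstream of 4 members are shown because the results below turn on these genes. Gabrg1 and Gabra2 are neighbours in a single cluster of GABA-A genes with different outcomes, and Grik3 and Chrna4 were the called members with the highest RPKM. Each run is the 250 bases before the RefSeq start site (assembly GRCm38.p6), 5′ to 3′ on the strand of the gene, and capitals mark every CG dinucleotide.
Gabrg1, minus strand, chr5:70842618-70842867: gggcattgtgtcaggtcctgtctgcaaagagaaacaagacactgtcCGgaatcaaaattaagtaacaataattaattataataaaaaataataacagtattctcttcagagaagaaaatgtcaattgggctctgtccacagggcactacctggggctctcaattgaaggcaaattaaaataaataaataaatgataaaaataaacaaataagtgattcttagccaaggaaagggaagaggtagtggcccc
Gabra2, minus strand, chr5:71095850-71096099: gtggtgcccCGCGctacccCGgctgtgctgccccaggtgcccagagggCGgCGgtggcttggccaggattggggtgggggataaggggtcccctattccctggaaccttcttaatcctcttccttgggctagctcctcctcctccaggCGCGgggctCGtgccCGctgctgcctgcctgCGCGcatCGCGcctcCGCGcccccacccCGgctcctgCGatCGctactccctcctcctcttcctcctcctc
Grik3, plus strand, chr4:125490446-125490695: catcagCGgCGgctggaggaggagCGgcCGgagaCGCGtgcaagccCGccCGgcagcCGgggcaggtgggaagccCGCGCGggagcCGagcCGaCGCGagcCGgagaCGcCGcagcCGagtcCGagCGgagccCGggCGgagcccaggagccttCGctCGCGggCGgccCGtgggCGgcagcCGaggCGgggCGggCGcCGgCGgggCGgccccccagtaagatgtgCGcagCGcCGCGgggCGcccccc
Chrna4, minus strand, chr2:181039178-181039427: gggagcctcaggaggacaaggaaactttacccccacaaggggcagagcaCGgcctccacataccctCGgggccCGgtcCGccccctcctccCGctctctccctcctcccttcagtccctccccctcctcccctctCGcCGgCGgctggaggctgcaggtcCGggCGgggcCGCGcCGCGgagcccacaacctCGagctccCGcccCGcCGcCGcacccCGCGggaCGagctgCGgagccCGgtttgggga
The window of Gabrg1 holds 1 CG, and 92.1% of the 32851 windows in the RefSeq table hold at least as many. Its GC content is 35.6%, against 70.0% for Gabra2, which holds 18 CG. The Chrna4 window holds 24 CG (at least as many in 12% of all windows) and the Grik3 window 42 (at least as many in 0.865%). A window was found for 66 of the 91 members, 76 windows in all, with a median of 8.5 CG against 6 over all windows. Short motifs were searched on both strands, CCGGAA (the core bound by ETS factors), TAATTA (a homeodomain core) and CACGTG (an E-box). They were found in 5.26%, 5.26% and 2.63% of the member windows, and in 12%, 4.84% and 6.02% of all windows. The Gabrg1 window held 1 CCGGAA and 2 overlapping TAATTA, and the windows of Gabra2, Grik3 and Chrna4 held none of the 3 motifs. A match is a description of letters, and no binding was measured.

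Some facts about the libraries bear on every value. Total counts per library were 61489462 to 81532334. Reads were counted over the whole span of a gene, introns included, while the deposited RPKM values are per length of the gene model, so levels are compared between genes only in RPKM and tests were run on counts, given here as CPM (counts scaled to the library total, after TMM scaling). All counts of vehicle 9 were even; with them halved, 6 members were called higher (2.75% of all genes) and 0 lower (0.996%), the same 6 as below. Sex-linked reads marked the 3 FGF2 embryos and vehicle 7 as male and vehicle 8 and 9 as female. FGF2 embryo 8 stood apart: it had the highest CPM of the 6 embryos for 48 of the 71 members tested, against 28% of all genes tested, and it is described separately below. Dorsal pallium markers were abundant in every library, with a summed level of 1895 to 2071 CPM in FGF2 embryos and 2804 to 3003 CPM in vehicle embryos, and 4 of the 10 were called lower (Emx1, Pax6, Eomes and Neurog2). Markers of other regions were present too and differed between the groups: 16 markers of the ventral telencephalon summed to 737 to 1030 CPM with FGF2 and 87.6 to 199 CPM with vehicle, and 13 of the 16 were called higher. Choroid plexus markers summed to 190 to 500 CPM with FGF2 and 32.9 to 36.1 CPM with vehicle (5 of 10 higher, 1 lower), and thalamus and midbrain markers to 137 to 306 and 86.4 to 94.8 CPM (4 of 10 higher). Cajal-Retzius markers summed to 249 to 314 CPM with FGF2 and 211 to 249 CPM with vehicle (4 of 8 higher). Meningeal markers summed to 2188 to 2425 and 3523 to 4044 CPM (2 of 8 lower, Col1a1 and Col1a2). Most of this sum came from the collagen genes Col1a1, Col1a2 and Col3a1. The other meningeal markers had log2 fold changes of 1.63 (Aldh1a2), 1.03 (Foxc2), 0.07 (Foxc1), 0.02 (Dcn) and −0.11 (Lum), none called. Whether the amount of meningeal tissue differed was not tested. One marker each was called higher for hypothalamus (Fezf1), microglia (C1qb) and sensory ganglion (Scn10a), and none for endothelium or skeletal muscle. Among vehicle embryos, Gsx1 of the ventral list and Rax and Nkx2-2 of the hypothalamic list were at 0. The part of these cells in the receptor results was not tested, and in bulk RNA fewer cells of a type and less RNA per cell cannot be told apart.

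In vehicle embryos the receptor transcripts were led by kainate subunits. Summed deposited RPKM was 49.0 ± 1.87 for the 5 kainate genes (SD, n = 3), 19.7 ± 1.50 for the 4 AMPA genes, 17.6 ± 1.76 for the 19 GABA-A genes, 15.3 ± 0.927 for the 2 GABA-B genes and 10.3 ± 0.971 for the 16 nicotinic genes. Glycine receptor genes summed to 5.20 ± 0.480, metabotropic glutamate genes to 4.51 ± 0.682 and NMDA genes to 2.81 ± 0.483. Serotonin, dopamine, muscarinic and delta genes each summed to between 0.493 and 1.14. The mean RPKM over all 6 embryos was at least 1 for 23 members and under 0.1 for 34. It reached 10 for 3 members, namely Grik5, Gabbr1 and Gria2.

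**Figure D1:**
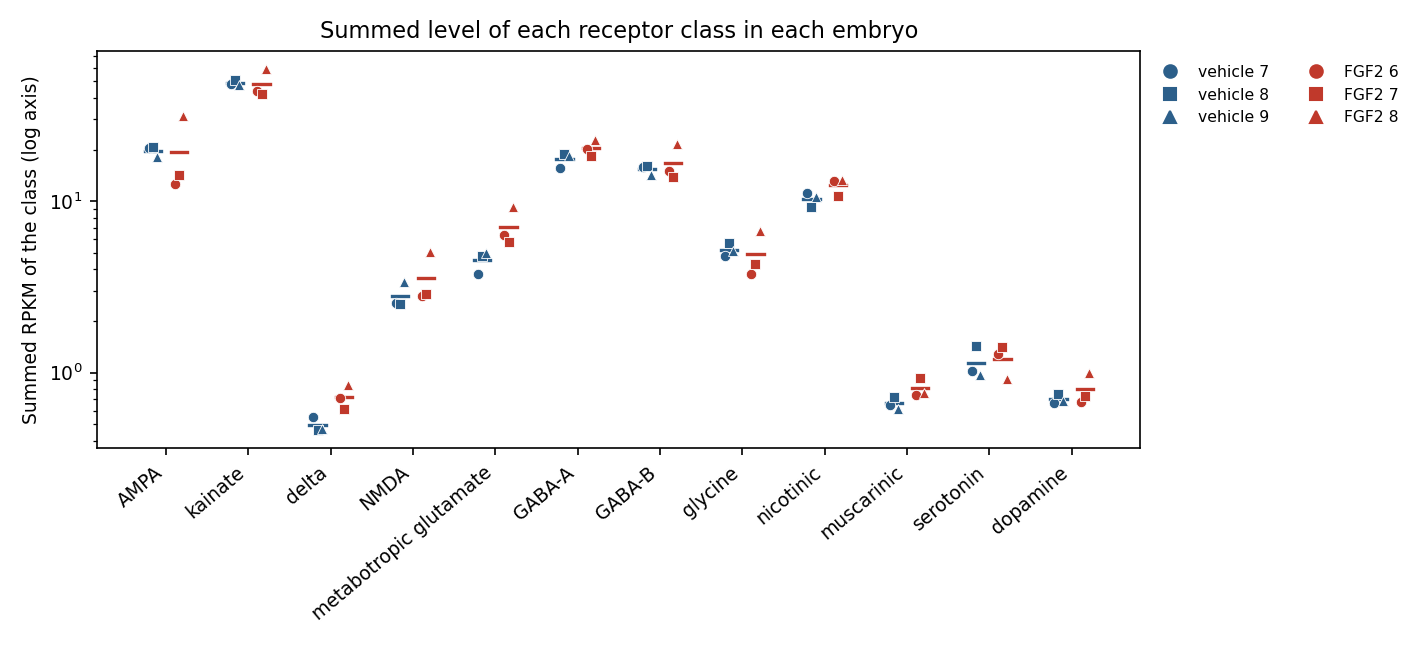
Summed deposited RPKM of each receptor class in each embryo (log axis); points are embryos, by group, and lines mark group means. Kainate genes sum highest in both groups, and in the metabotropic glutamate, delta and muscarinic classes all 3 FGF2 embryos lie above all 3 vehicle embryos.

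Summed levels of most classes overlapped between the groups. With FGF2 the kainate sum was 48.5 ± 9.21 RPKM and the AMPA sum 19.4 ± 10.3 RPKM, both within the vehicle spread on average but with a much wider spread of their own. The metabotropic glutamate sum was 6.31, 5.74 and 9.27 RPKM in FGF2 embryos 6, 7 and 8 and 3.73, 4.78 and 5.02 in vehicle embryos 7, 8 and 9, so the groups did not overlap. Delta (0.724 ± 0.119 against 0.493 ± 0.0494) and muscarinic genes (0.813 ± 0.106 against 0.661 ± 0.0546) did not overlap either. These class sums were not tested, since with 3 embryos a group the smallest two-sided p of an exact permutation test is 0.1. The muscarinic sum includes Chrm4, whose span touches the far more abundant Mdk. Mdk was itself higher in every FGF2 embryo (541, 503 and 500 CPM against 443, 434 and 443 CPM). The part of Mdk reads in the muscarinic sum was not tested.

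Of the 71 members with enough reads to be tested, 6 rose with FGF2 and none fell (edgeR, adjusted p under 0.05 over 21983 genes). Of all genes tested, 2.68% were called higher and 0.951% lower. The 6 were Gabrg1, Grik3, Grm4, Grm3, Grm7 and Chrna4, so 4 serve glutamate, 1 GABA and 1 acetylcholine, and 3 are ion channel subunits and 3 metabotropic receptors. At an unadjusted p under 0.05, edgeR placed 23 members higher (11.2% of all genes) and 2 lower, Glrb and Drd4 (8.13% of all genes). DESeq2 called 17 members higher (5.93% of all genes) and 0 lower (3.08%). With voom and sample weights 13 were higher (5.79%) and 1 lower (4.49%), and limma on log2(RPKM + 1) called 3 higher (2.29%) and 0 lower (0.82%). The median log2 fold change was 0.29 over the 71 members and 0.01 over all genes tested. It was positive for 52 members and negative for 19, and 51.4% of all genes had a positive value. All 3 FGF2 embryos lay above all 3 vehicle embryos for 23 members (14.6% of all genes) and below for 3 (13.6% of all genes). A fit with embryo sex as a covariate left 0 members called in either direction (0.0182% of all genes higher, 0.00455% lower), with the 6 log2 fold changes at 1.72 to 3.27 and edgeR adjusted p from 0.159 to 0.478. With both vehicle females and no FGF2 females, that fit rests its comparison on vehicle 7 alone.

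**Figure D2:**
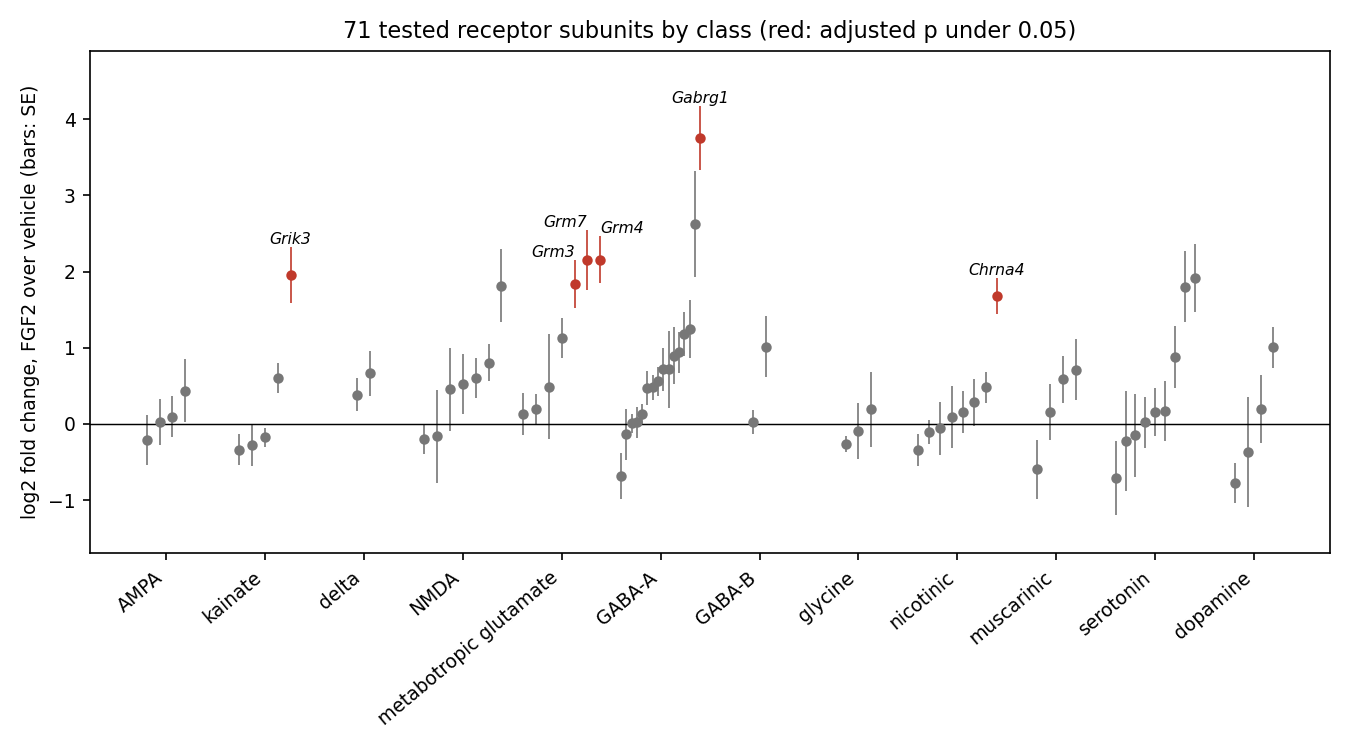
log2 fold change (FGF2 over vehicle, edgeR; bars are standard errors) of the 71 tested members, grouped by receptor class. The 6 called members are red and lie between 1.68 (Chrna4) and 3.76 (Gabrg1), and no member with a negative value was called.

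The 20 members not tested had at most 48 reads each over all libraries. They were Gabra6, Gabrd and Gabrr1 (GABA-A), Glra1 and Glra3 (glycine), Grm6 (a retinal metabotropic glutamate receptor), Drd5 (dopamine), Htr1d, Htr3b, Htr4 and Htr5b (serotonin), Chrm5 (muscarinic), and Chrna2, Chrna6, Chrna9, Chrna10, Chrnb3, Chrnd, Chrne and Chrng (nicotinic). Gabra6, the subunit of cerebellar granule cells, Chrna6 and Chrnb3 had 0 reads among 409833644 counted, which allows up to 0.00732 CPM over the 6 libraries at a floor of 3 reads (counting error only).

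Among ionotropic glutamate receptors, Grik3 rose and the more abundant kainate genes did not. Grik3, which encodes the kainate subunit GluK3, was at 31.4, 49.4 and 76.7 CPM in FGF2 embryos 6, 7 and 8 and at 15.0, 17.0 and 8.48 CPM in vehicle embryos 7, 8 and 9. The lowest FGF2 embryo was above the highest vehicle embryo, and the FGF2 embryos differed widely among themselves. Its log2 fold change was 1.96 ± 0.37 (SE, edgeR adjusted p = 0.0387), and its mean RPKM was 5.81 ± 2.63 against 1.40 ± 0.408 (SD, n = 3). The call was lost when any embryo other than FGF2 6 was left out (edgeR adjusted p 0.0925 to 0.138), and the log2 fold change stayed between 1.58 and 2.22. Grik3 made up 7.47%, 13.2% and 14.5% of the kainate RPKM with FGF2 and 3.25%, 3.31% and 1.97% with vehicle.

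Grik5, the kainate subunit GluK5 that forms channels only with other kainate subunits, had the highest RPKM of all members. Its level was 35.2, 32.8 and 44.1 RPKM with FGF2 and 41.0, 42.8 and 39.5 RPKM with vehicle. The FGF2 embryos lay on both sides of the vehicle range, with a log2 fold change of −0.18 ± 0.13 (edgeR adjusted p = 0.492). Its share of the kainate RPKM was 77.4% ± 2.66 with FGF2 and 83.8% ± 0.660 with vehicle, without overlap. Of the other kainate genes, Grik4 had a log2 fold change of 0.61, Grik1 of −0.28 and Grik2 of −0.34, and none was called.

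Gria2 encodes the AMPA subunit that limits calcium entry once its transcript is edited, and it held 71.4% of the AMPA RPKM with FGF2 and 77.5% with vehicle. Its level was 9.16, 9.78 and 22.8 RPKM in FGF2 embryos and 16.1, 15.9 and 13.9 RPKM in vehicle embryos. FGF2 6 and 7 were below every vehicle embryo and FGF2 8 was above all of them. The log2 fold change over all embryos was −0.21 ± 0.33 (edgeR adjusted p = 0.771), and without FGF2 8 it was −0.75 ± 0.07 (edgeR adjusted p = 0.00122). All 4 AMPA genes were highest in FGF2 8 and none was called over all embryos, with a class median of 0.06. Without FGF2 8 all 4 had a negative log2 fold change and the median was −0.36, with Gria2 alone called.

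No NMDA or delta gene was called. Grin3b had the highest RPKM of the 7 NMDA genes, at 1.14, 1.29 and 1.24 with FGF2 and 1.10, 1.16 and 1.66 with vehicle, and the groups overlapped. Its span overlaps ORF61, counted at 111 to 136 CPM, so reads of that gene cannot be told from its own in the counts. The deposited RPKM of ORF61 was 25.4 to 30.3, and whether its reads also entered the RPKM of Grin3b was not tested. Grin1, the subunit that NMDA receptors require, had a log2 fold change of 0.53 ± 0.39 and Grin2b, the main embryonic partner, of 0.45 ± 0.54. Both signs rested on FGF2 8: Grin2b was at 4.21, 4.92 and 18.5 CPM with FGF2 and 6.66, 7.64 and 5.81 CPM with vehicle, and without FGF2 8 the values were −0.11 ± 0.19 for Grin1 and −0.56 ± 0.18 for Grin2b (edgeR adjusted p = 0.777 and 0.0993). Grin2a, the partner that increases after birth, was near the threshold (1.81 ± 0.48, edgeR adjusted p = 0.0899) at under 0.6 CPM in every embryo. Grid1 led the delta receptors with 0.648, 0.597 and 0.816 RPKM with FGF2 and 0.515, 0.449 and 0.419 with vehicle, and its log2 fold change was 0.38 ± 0.22 (edgeR adjusted p = 0.383).

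Metabotropic glutamate receptors held 3 of the 6 called members, all of them among the receptors that couple to inhibitory G proteins. Of the 8 genes, 7 were tested, all 7 had a positive log2 fold change with a median of 1.13, and all 7 were highest in FGF2 8. Grm4, a presynaptic receptor, was at 7.04, 7.44 and 12.2 CPM with FGF2 and at 1.93, 2.63 and 1.40 CPM with vehicle. The groups were far apart, with the lowest FGF2 embryo well above the highest vehicle embryo. The log2 fold change was 2.16 ± 0.31 (edgeR adjusted p = 0.0112), and mean RPKM was 1.55 ± 0.414 against 0.344 ± 0.114. Grm4 made up 21.9% ± 1.89 of the metabotropic glutamate RPKM with FGF2 and 7.74% ± 2.62 with vehicle. Its call was lost only without vehicle 7 among the 6 single-embryo omissions (edgeR adjusted p = 0.0654).

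Grm7, which encodes a presynaptic receptor of the same group with low affinity for glutamate, was at 6.63, 4.64 and 8.65 CPM with FGF2 and at 1.83, 1.90 and 0.730 CPM with vehicle. No FGF2 embryo fell within the vehicle range, and the log2 fold change was 2.16 ± 0.39 (edgeR adjusted p = 0.0300). Grm3, found in neurons and in astrocytes of the mature brain, was at 3.79, 2.59 and 5.77 CPM with FGF2 and at 1.23, 1.18 and 0.984 CPM with vehicle. Its groups also did not overlap, with a log2 fold change of 1.84 ± 0.31 (edgeR adjusted p = 0.0237). The Grm7 call was lost without FGF2 6, vehicle 7 or vehicle 8 (edgeR adjusted p 0.0660 to 0.0950) and the Grm3 call without FGF2 6 or any vehicle embryo (0.0516 to 0.114). Both genes were counted over long spans, introns included, and their mean RPKM with FGF2 was only 0.260 ± 0.0318 for Grm7 and 0.406 ± 0.109 for Grm3. The part of intronic reads in these counts was not measured.

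Grm2 was the metabotropic glutamate gene with the highest RPKM and was not called. It stood at 3.11, 2.22 and 3.21 RPKM with FGF2 and at 1.80, 2.49 and 2.85 RPKM with vehicle, and the groups overlapped (log2 fold change 0.19 ± 0.20, edgeR adjusted p = 0.654). Grm8, the other tested presynaptic receptor of the group of Grm4 and Grm7, was just outside the threshold (1.13 ± 0.27, edgeR adjusted p = 0.0652). Grm5, a receptor that couples to phospholipase C, had a log2 fold change of 0.49 ± 0.69. It ranged from 1.36 to 11.6 CPM among the FGF2 embryos alone, and without FGF2 8 its value was −0.79 ± 0.35 (edgeR adjusted p = 0.215).

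**Figure D3:**
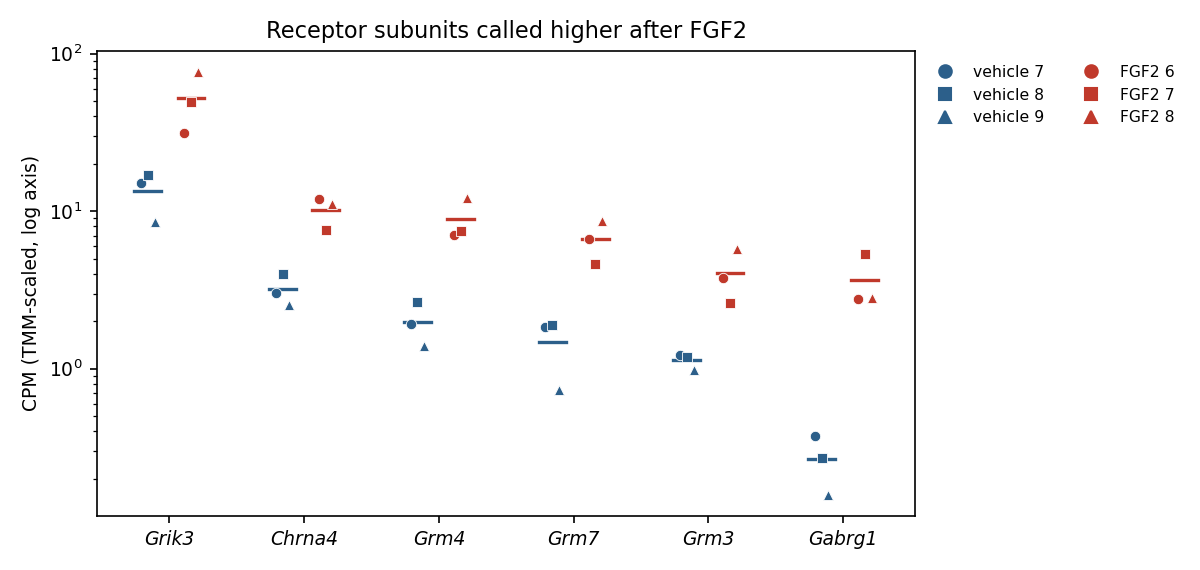
CPM of the 6 called members in each embryo (log axis), FGF2 embryos 6, 7 and 8 and vehicle embryos 7, 8 and 9, with lines at the group means. For every gene the 3 FGF2 embryos lie above the 3 vehicle embryos; Gabrg1 goes from at most 0.376 CPM with vehicle to at least 2.78 CPM with FGF2.

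Of the GABA-A genes, Gabrg1 rose, from the lowest vehicle RPKM of the called members. It encodes the gamma-1 subunit, which is sparse in the mature cortex and more frequent in subcortical regions. Its level was 2.78, 5.36 and 2.80 CPM with FGF2 and 0.376, 0.269 and 0.159 CPM with vehicle, from 234, 380 and 180 reads against 23, 18 and 10 reads. Every FGF2 embryo was several times above the highest vehicle embryo. The log2 fold change was 3.76 ± 0.42 (edgeR adjusted p = 0.00438), and RPKM was 0.498 ± 0.307 against 0.0121 ± 0.0114. It was the only one of the 6 called members that stayed called whichever embryo was left out (log2 fold change 3.37 to 4.07, largest edgeR adjusted p = 0.0367). Even with FGF2 it made up 2.52% ± 1.79 of the GABA-A RPKM.

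Gabrg1 lies at chr5:71142286-71233856 (NCBIM37), at one end of a group of 4 GABA-A genes within 1387 kb. Gabra2, the next gene, was at 6.15, 6.01 and 9.34 CPM with FGF2 and 6.58, 6.63 and 7.94 CPM with vehicle, so the groups overlapped, with a log2 fold change of 0.02 ± 0.20. Gabra4 and Gabrb1, the other 2 genes of the group, had values of 0.56 ± 0.18 and 0.89 ± 0.37 and were not called. Gabrb2, a beta subunit gene on chromosome 11, was at 9.77, 7.25 and 15.7 CPM with FGF2 and 5.20, 5.39 and 3.81 CPM with vehicle. Its groups did not overlap and it was near the threshold (1.18 ± 0.29, edgeR adjusted p = 0.0731). Log2 fold changes were 1.25 (Gabrg3) and 0.72 (Gabra5) on chromosome 7, and 0.14 (Gabre), 0.48 (Gabra3) and 0.94 (Gabrq) on the X chromosome. None of these 5 genes was called.

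**Figure D4:**
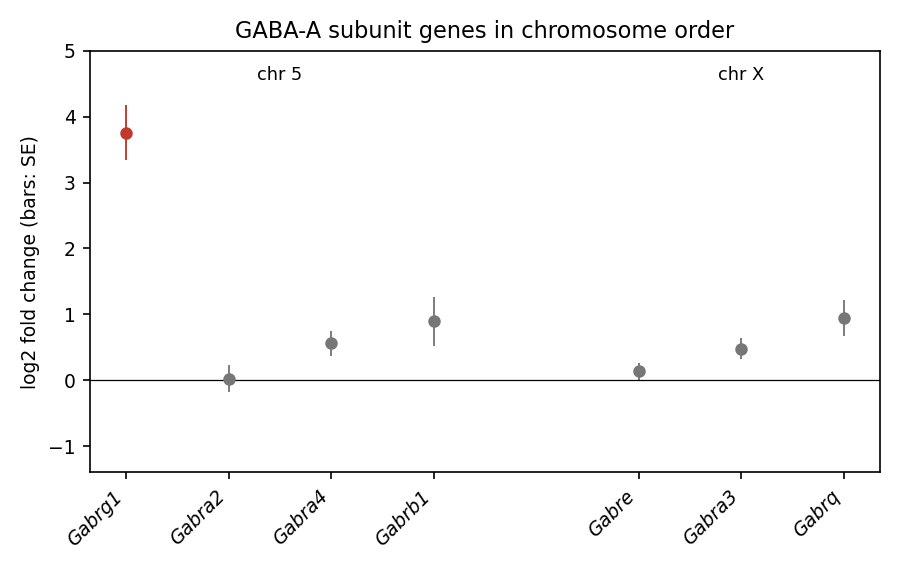
log2 fold change (FGF2 over vehicle; bars are standard errors) of GABA-A subunit genes in chromosome order in the groups on chromosomes 5 and X. Gabrg1 is called (red) at 3.76 while its neighbour Gabra2 is at 0.02.

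Gabrp, the pi subunit best known from epithelia, had the highest mean RPKM of the GABA-A genes. It was at 5.56, 4.48 and 2.13 RPKM with FGF2 and 5.30, 7.94 and 5.87 RPKM with vehicle, with FGF2 8 the lowest embryo. Its log2 fold change was −0.68 ± 0.30 (edgeR adjusted p = 0.277), and its share of the GABA-A RPKM was 20.4% ± 9.73 with FGF2 and 36.1% ± 5.48 with vehicle. In all, 14 of the 16 tested GABA-A genes had a positive log2 fold change (51.4% of all genes), with a median of 0.64. By CPM, 7 had all FGF2 embryos above all vehicle embryos (14.6% of all genes), and Gabrp alone had all of them below (13.6% of all genes). Without FGF2 8, 12 of the 16 were positive and the median was 0.35. Gabrr3 was counted at 8.26 to 9.83 CPM in all 6 embryos but had an RPKM of at most 0.0214. Nearly all of its reads lie under the overlapping pseudogene Orai2-ps, counted at 8.24 to 9.72 CPM.

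GABA-B receptors need 2 different subunits, and neither gene was called. Gabbr1, the subunit that binds GABA, was at 14.7, 13.3 and 20.5 RPKM with FGF2 and 15.5, 15.7 and 14.0 RPKM with vehicle, and the groups overlapped (log2 fold change 0.02 ± 0.16, edgeR adjusted p = 0.952). Gabbr2, which couples to the G protein, was much lower in RPKM, at 0.303, 0.436 and 1.03 with FGF2 and 0.243, 0.291 and 0.254 with vehicle. Its log2 fold change was 1.01 ± 0.40 (edgeR adjusted p = 0.224), and 0.39 ± 0.22 without FGF2 8 (edgeR adjusted p = 0.331).

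Of the 5 glycine receptor genes, Glrb, the beta subunit that anchors receptors to gephyrin, had the highest RPKM. It was at 2.80, 2.84 and 2.66 RPKM with FGF2 and 3.19, 3.70 and 3.18 RPKM with vehicle, so all 3 FGF2 embryos were lower. The difference was small (log2 fold change −0.26 ± 0.11) and was not called (edgeR adjusted p = 0.236). Glra2, the embryonic alpha subunit, ranged from 0.897 to 4.02 RPKM among the FGF2 embryos and from 1.59 to 2.01 among the vehicle embryos, with FGF2 8 highest. Its log2 fold change was 0.19 ± 0.49 over all embryos and −0.67 ± 0.23 without FGF2 8 (edgeR adjusted p = 0.861 and 0.118).

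Among nicotinic genes, Chrna4 rose while its usual partner Chrnb2 did not. The alpha-4 and beta-2 subunits together form the most common nicotinic receptor of the brain. Chrna4 was at 11.9, 7.60 and 11.1 CPM with FGF2 and 3.04, 3.99 and 2.54 CPM with vehicle. The groups were well separated, and FGF2 8 was not the highest embryo. The log2 fold change was 1.68 ± 0.24 (edgeR adjusted p = 0.0112), and mean RPKM was 2.22 ± 0.472 against 0.662 ± 0.149. The call was lost without vehicle 7 or vehicle 9 (edgeR adjusted p 0.0676 and 0.0522).

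Chrnb2 was at 5.21, 5.15 and 7.30 RPKM with FGF2 and 6.32, 5.64 and 6.30 RPKM with vehicle, with a log2 fold change of −0.10 ± 0.16 (edgeR adjusted p = 0.758). The share of Chrna4 in the nicotinic RPKM was 17.8% ± 2.04 with FGF2 and 6.51% ± 2.03 with vehicle, and that of Chrnb2 was 47.7% ± 7.42 and 59.0% ± 2.29. The 3 genes of the compact chromosome 9 group (67.7 kb), which encode ganglion-type subunits, had log2 fold changes of −0.06 (Chrna5), 0.15 (Chrna3) and 0.09 (Chrnb4). Chrna7, the subunit of homomeric brain receptors, had −0.34 ± 0.21, and the muscle-type gene Chrnb1 had 0.48 ± 0.21. Neither was called.

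Muscarinic, serotonin and dopamine receptor genes were low and none was called. Chrm4, the muscarinic gene with the highest RPKM, was at 0.291, 0.585 and 0.335 RPKM with FGF2 and 0.240, 0.164 and 0.307 RPKM with vehicle, with overlap. Its span touches Mdk, which was counted at 541, 503 and 500 CPM with FGF2 and 443, 434 and 443 CPM with vehicle. Htr3a, the ion channel among the serotonin receptors and a marker of some interneurons, was at 0.328, 0.460 and 0.0998 RPKM with FGF2 and 0.329, 0.728 and 0.306 RPKM with vehicle, again with overlap. Drd2, an inhibitory dopamine receptor of striatal neurons, was at 0.435, 0.471 and 0.476 RPKM with FGF2 and 0.205, 0.281 and 0.211 RPKM with vehicle, without overlap. Drd2 was near the threshold (log2 fold change 1.01 ± 0.27, edgeR adjusted p = 0.0912). So were Htr1f, an inhibitory serotonin receptor (1.92 ± 0.45, edgeR adjusted p = 0.0652), and Htr7, a stimulatory one (1.80 ± 0.47, edgeR adjusted p = 0.0871), both at under 1 CPM in every embryo. Drd4 lay lower in all 3 FGF2 embryos, at 0.487, 0.507 and 0.637 CPM against 0.867, 1.03 and 0.889 CPM, with a log2 fold change of −0.77 ± 0.27 (edgeR adjusted p = 0.168). Htr2b was counted at 2.29 to 5.33 CPM, but it lies within the span of Psmd1, counted at 196 to 224 CPM, and its RPKM was at most 0.213.

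FGF2 embryo 8 shaped many of these values. It was the highest embryo for 23 of 25 tested glutamate receptor genes, 13 of 18 GABA receptor genes and 4 of 12 acetylcholine receptor genes. The share over all genes tested was 28%, and the acetylcholine count lies near it. Summed over all members, RPKM was 121 and 116 in FGF2 6 and 7, 173 in FGF2 8, and 125, 132 and 125 in vehicle 7, 8 and 9. A list of 11 general neuronal markers summed to 3413 CPM in FGF2 8, 1969 and 2057 CPM in FGF2 6 and 7, and 2274 to 2320 CPM in vehicle embryos, and none of the 11 was called between groups. The part of neuronal content in the receptor values was not tested. Without FGF2 8, 6 members were called higher (Gabrg1, Grm4, Chrna4, Grm3, Grm7 and Gabrb2; 4.31% of all genes) and 2 lower (Gria2 and Grik5; 4.38% of all genes). The member median was then 0.12, with 41 positive and 30 negative values, against 0.01 over all genes. By class it was −0.11 for NMDA genes (0.53 over all embryos), 0.93 for metabotropic glutamate genes (1.13), −0.33 for kainate genes (−0.18) and 0.10 for GABA-B genes (0.52). Grik3 was not among the called (log2 fold change 1.58, edgeR adjusted p = 0.0925), and Grik5 had −0.33 ± 0.07 (edgeR adjusted p = 0.0252).

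**Figure D5:**
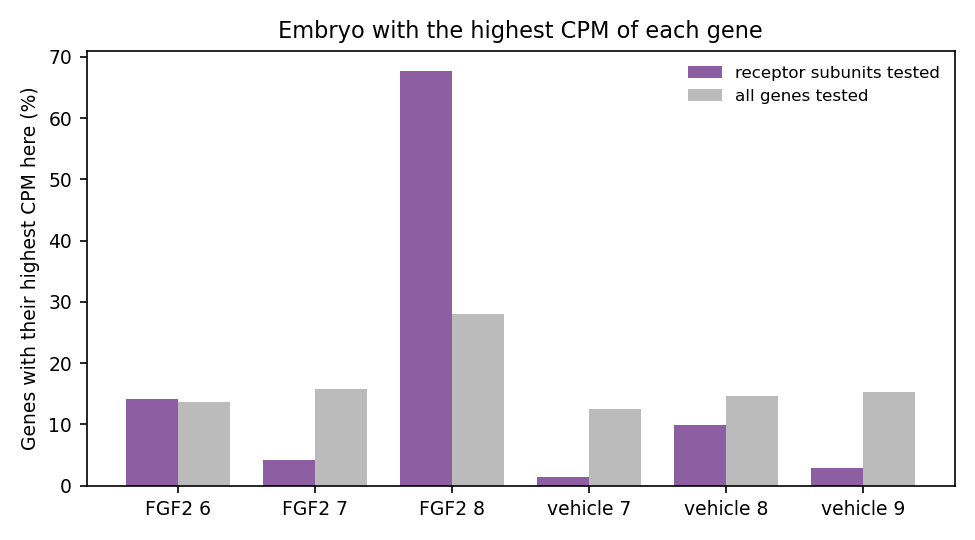
Share of genes (percent) whose highest CPM lies in each embryo, for the 71 tested members and for all 21983 tested genes. FGF2 8 is the highest embryo for 67.6% of members and 28% of all genes.

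Lists of related genes were read beside the receptors. Of 41 partner proteins (auxiliary subunits, scaffolds, anchors and organisers of receptors), all were tested, 1 rose and 0 fell, near the 2.68% of all genes called higher, and the median log2 fold change was 0.07. The one was Kctd16, an auxiliary subunit of GABA-B receptors, at 0.380, 0.352 and 0.606 CPM with FGF2 and 0.0491, 0.0598 and 0 CPM with vehicle (edgeR adjusted p = 0.0393). Of 26 adrenergic, histamine, adenosine, purine and cannabinoid receptor genes, 23 were tested, 1 rose and 0 fell, with a median of 0.31, and nothing is read from a count of 1 in either list. The one that rose was Hrh3, an inhibitory presynaptic histamine receptor, at 4.20, 3.40 and 5.69 CPM with FGF2 and 1.06, 1.33 and 0.794 CPM with vehicle (log2 fold change 2.06 ± 0.29, edgeR adjusted p = 0.0104). The 2 chloride cotransporters, which set the direction of current through GABA-A and glycine receptors, were not called. Slc12a2, which brings chloride in, was at 102, 113 and 67.0 CPM with FGF2 and 49.4, 46.6 and 61.1 CPM with vehicle (0.85 ± 0.20, edgeR adjusted p = 0.0641). Slc12a5, which exports it, had 0.52 ± 0.19 (edgeR adjusted p = 0.196).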

How the data were processed

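Each of the 6 embryos had 1 count file and 1 RPKM file. The submitters' processing notes name bedtools 2.12.0, TopHat2 2.0.9, Bowtie2 2.1.0.0, CASAVA 1.8 and the build NCBIM37 (mm9), with no roles. The deposited counts are whole numbers of alignments over each gene's span, introns included, so reads in overlapping genes count for each, and 35 members overlap another span. The authors' RPKM values are per symbol. Neither the tool behind them nor the use of strand in counting is given in the sources used here. The members, lists and alternatives were chosen with earlier results of these data known. Counts were tested with edgeR 4.0.16 (R 4.3.3; filterByExpr, TMM, robust quasi-likelihood, no covariate, 3 against 3), adjusted by Benjamini-Hochberg over 21983 genes. Alternatives used limma 3.58.1 and DESeq2 1.42.0, RLE or library-total scaling, other filters, log2(RPKM + 1) or log2(RPKM + 0.1), a block, a sex term and each embryo left out. On simulated counts of this comparison (21691 genes), 73 of 100 2-fold and 99 of 100 4-fold changes were recovered, with 6 false calls. Members described by embryo are those called and the highest in RPKM of each class; those at an adjusted p of 0.05 to 0.1 are named, and other members, Gabra2, Gabrb2, Gabbr2, Grin2b and Drd4 by embryo, were named for their role or place with their values known. Log2 fold changes are FGF2 over vehicle; ± is SE beside a log2 fold change and SD elsewhere. Coordinates are 1-based NCBIM37, except promoters (RefSeq, GRCm38.p6). Replicate libraries differed beyond sampling noise. Reads carry no molecular identifiers, so counting limits cover counting error only. Some members enter the counts and sums and are not reported by name here.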

Additional observations from a re-analysis of the deposited data

How the results depend on the processing

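All counts below are genes at an adjusted p under 0.05, members first. The number of members called higher was 6 of 71 under RLE scaling (2.66% of all genes), library totals (3.11%) and halved vehicle 9 counts (2.75%). It was 6 of 53 with a 1 CPM minimum (3.12% of all genes) and 5 of 88 without a filter (2.16%). It was 0 with sex as a covariate (all genes: 4 higher, 1 lower), 13 with voom sample weights (1273 higher, 986 lower), 17 with DESeq2 (1359, 706) and 4 among genes overlapping no other span (344, 144). It was 3 in each fit of RPKM (Chrna4, Grik3 and Grm4 of 23 tested with the filter; Chrna4, Grm4 and Grm7 of 86 without, where Gabrg1 and Grik3 had adjusted p of 0.139 and 0.0888 by limma), with all genes at 318 higher and 114 lower for log2(RPKM + 1), 324 and 107 for log2(RPKM + 0.1), and 229 and 42 without a filter. The fit of genes overlapping no other span tested 41 members, without Grik3 and Grm7, whose spans overlap other genes. Members called lower were 1 with voom weights. Leaving out 1 embryo gave 1 (without vehicle 7) to 8 (without FGF2 7) members higher and 0 to 2 lower, 181 to 964 genes higher and 37 to 979 lower. The log2 fold change of Gabbr1 changed sign with sex (−0.013), voom weights (−0.168) and without FGF2 8 or vehicle 9, within a range of −0.194 to 0.143 over the embryos left out. That of Grin3b was 0.022 with sex, and −0.305 to 0.013 with an embryo left out. The cause of these shifts was not tested.

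The embryo numbers 7 and 8 occur in both groups. Their deviations from the group means correlated at −0.04 and −0.03. The labels do not give the litter, so these values cannot settle whether same-numbered embryos were paired. A replicate block (by embryo number) gave 7 members higher (Gabra5 added), 0 lower, 557 genes higher and 146 lower, and a Grin3b log2 fold change of 0.086. Only numbers 7 and 8 hold an embryo of each group, so that fit rests its comparison on those embryos. It leaves little to measure the spread between embryos. The low-count filter left 20 members untested.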
